A study of Mus musculus with 5 samples.

Results

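The peaks described here lie within the Zfp genes of the mouse, a family named for the zinc fingers of its proteins. A peak was taken when its summit fell in the body of a protein-coding gene whose symbol is Zfp followed by a number, or within 1 kb upstream of the gene's start, and Zfp42, which encodes REX1, was left out. The annotation (GENCODE release M21 on GRCm38, the build named mm10) holds 364 such genes among 21938 protein-coding genes. Of the 291776 peaks of the 3 lists, 3027 were in them: 1041 of 96050 in the REX1 list, 1068 of 97602 in that of wild-type RNF12 and 918 of 98124 in that of a catalytic RNF12 mutant. A further 22, 16 and 12 summits lay 1 to 2 kb upstream of a Zfp gene and were not taken.

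Chromatin immunoprecipitation with sequencing (ChIP-seq) was used to ask where the transcription factor REX1 and RNF12 (also called RLIM, gene Rlim), the E3 ubiquitin ligase that targets REX1 for degradation, sit on chromatin in female mouse embryonic stem cells of a 129/Sv and Cast/Ei cross. The REX1 library came from wild-type cells carrying FLAG-V5-tagged REX1. Both RNF12 libraries came from Rlim+/- cells, which keep 1 intact Rlim copy, that carried FLAG-V5-RNF12, either wild type (RNF12 WT) or with the substitutions H569A and C572A in the catalytic RING domain (the RNF12 mutant). The tagged RNF12 was driven by the CAG promoter of an introduced vector, so its level is not that of the endogenous gene, and in the RNF12 experiment cells were held for 3 h in 15 µM of the proteasome inhibitor MG132 before fixation with 2 mM DSG and 1% formaldehyde. In every case the V5 tag was precipitated. Whether the REX1 library had the same treatment and fixation is not given in the sources used here, so a difference between the REX1 list and the RNF12 lists cannot be told apart from one of treatment. Each list rests on 1 library, so nothing below compares conditions by a test: shares carry a 95% interval by Wilson's method that accounts for counting alone, and peaks of one gene or gene cluster are not independent of each other. The depth of the libraries is not known from peak lists. Fold enrichment, the ratio of signal to control at the summit, is compared only within a list, as a value or as a percentile of that list.

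C2H2 zinc fingers are short folds in which cysteines and histidines hold a zinc ion, and each finger can contact a few bases of DNA. The fingers usually stand in a tandem array, joined by a conserved linker, and in many Zfp genes the whole array is encoded by the last exon. Many of the proteins also carry a KRAB domain, encoded upstream of the array, through which they recruit the corepressor TRIM28 and silence retroelements or imprinted loci, and such genes often stand in clusters that arose by duplication. In the annotated proteins, 351 of the 364 genes encoded a finger string. A KRAB A-box string was found in 177 of the genes. Because this string misses diverged A boxes, a sequence profile built from the matching proteins was also searched, and it was met by 225.

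Sequences (mm10) are shown for genes whose peaks were among the strongest, to set the strings found at promoters beside the finger linkers of last exons. Only peaks with such a mark are shown, and most of the strongest promoter peaks named below had no string. The first 4 sequences, 3 from promoters and 1 from the coding last exon of Zfp503, show the REX1/YY1-type string beside a summit in capitals, that is one of ATGGCGAC, ATGGCGCC, ATGGCGGC, ATGGCTAC, ATGGCTCC and ATGGCTGC on either strand. They belong to the REX1 summits of Zfp40 and Zfp503, to the REX1 and RNF12 mutant summits of Zfp318 and to both RNF12 summits of Zfp207. At Zfp40 the strongest promoter summits of both RNF12 lists also had such a string within 50 bp. In the last 3, from coding last exons, the capitals mark the codons of a finger linker that lies in frame in the annotated coding sequence within 50 bp of the summits of all lists for Zfp777, of REX1 and RNF12 WT for Zfp697 and of the RNF12 mutant for Zfp771. The 32 bases around each summit occur once in the genome. All are written 5′ to 3′ in the direction in which the gene is transcribed.
Zfp40 promoter, chr17:23193075-23193104: gcctcagcccgGCAGCCATagaacgcccag
Zfp318 promoter, chr17:46383503-46383532: gcggctcgccgGTCGCCATtttgcgcgggg
Zfp207 promoter, chr11:80383198-80383227: accccattaagATGGCGGCagcgcccgctc
Zfp503 last exon, chr14:21985112-21985141: gcgccgcagcaGCAGCCATggcttgtcaca
Zfp777 last exon, chr6:48024702-48024731: tgcgcacACAGGCGAGCGGCCAtacccctg
Zfp697 last exon, chr3:98427819-98427848: ggctgcacACGGGCGAGCGGCCCaacctgt
Zfp771 last exon, chr7:127254415-127254444: gcacgcatACGGGCGAGCGGCCCtacccgt

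With all deposited peaks, most Zfp genes carried one, and most often at the promoter. At least 1 peak lay in 329 genes for REX1 (90.4%, 86.9% to 93.0%), in 314 for RNF12 WT (86.3%, 82.4% to 89.4%) and in 321 for the RNF12 mutant (88.2%, 84.5% to 91.1%). Over all protein-coding genes the shares were 74.1%, 75.7% and 75.4%. In 310 other genes that encode at least 3 C2H2 fingers they were 84.2%, 84.5% and 86.5%, with intervals that overlapped those of the Zfp genes in each list. Among the 20000 peaks of a list with the highest −log10 q, 184 Zfp genes kept a REX1 peak, 210 an RNF12 WT one and 129 an RNF12 mutant one. All 3 lists had a peak in 287 Zfp genes (78.8%), REX1 alone in 16 (4.40%), RNF12 WT alone in 2 (0.549%) and the RNF12 mutant alone in 9 (2.47%). Over all protein-coding genes these shares were 67.8%, 1.85%, 2.01% and 2.44%, so that the RNF12 mutant alone was at the level of all genes. No list had a peak in 12 Zfp genes (3.30%), against 18.2% of all protein-coding genes. They were Zfp72, Zfp300, Zfp345, Zfp352, Zfp616, Zfp735, Zfp773, Zfp869, Zfp937, Zfp945, Zfp952 and Zfp972. The KRAB profile was met by 8 of these 12 and by 225 of all 364 Zfp genes.

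A promoter peak, with its summit within 1 kb of a transcription start site (TSS) of a protein-coding transcript, was found in 316 Zfp genes for REX1 (86.8%), 296 for RNF12 WT (81.3%) and 298 for the RNF12 mutant (81.9%), against 65.1%, 66.7% and 65.9% of all protein-coding genes and 79.0%, 77.4% and 80.3% of the other C2H2 genes. In 261 genes (71.7%) the promoter was marked in all 3 lists, against 58.3% of all protein-coding genes. A last exon peak, whether in coding sequence or in the 3′ UTR, was found in 72 Zfp genes for REX1, 89 for RNF12 WT and 73 for the RNF12 mutant, that is 19.8%, 24.5% and 20.1%. The corresponding shares of all protein-coding genes were 12.8%, 17.3% and 11.9%. In the other C2H2 genes they were 24.8%, 30.0% and 26.8%, above the Zfp values with intervals that overlapped them, so that a share over that of all genes was not particular to Zfp genes. In 48 genes (13.2%) the last exon was marked in all 3 lists, against 5.27% of all protein-coding genes. REX1 alone marked 16 (4.40%) and RNF12 WT alone 23 (6.32%), which is near the level of all genes (4.06% and 6.32%). In 12 genes (3.30%) the last exon carried a peak of both RNF12 lists and none of REX1, near the 3.15% of all protein-coding genes. All 12 had a REX1 peak elsewhere in the gene, as had 90.4% of Zfp genes in any position, and 11 had one in the promoter, as had 86.8% of Zfp genes.

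**Figure D1:**
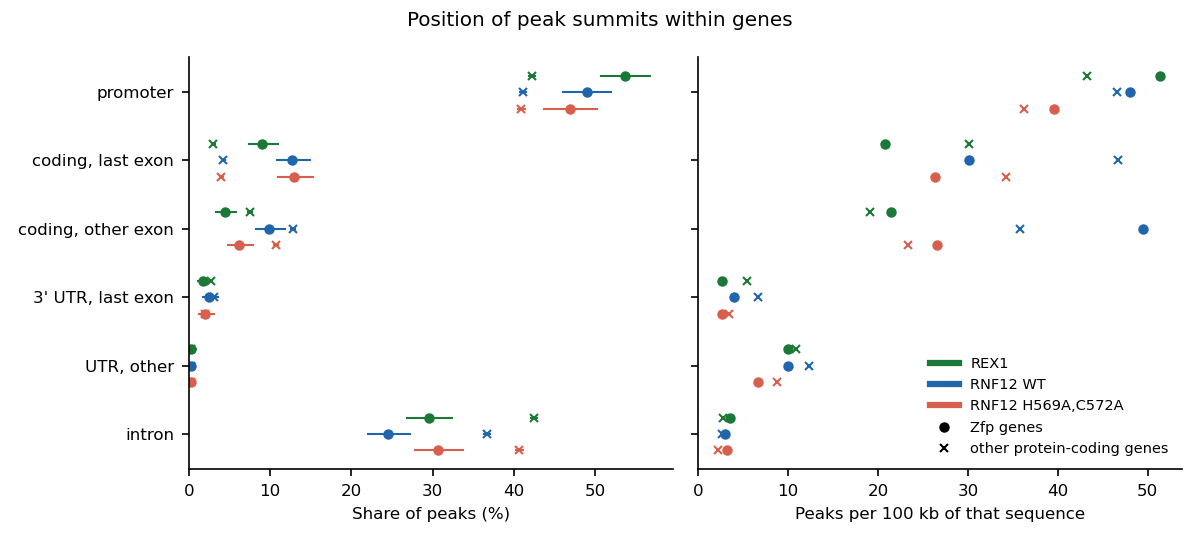
Position of summits within Zfp genes (circles) and other protein-coding genes (crosses), as the share of peaks in percent with 95% Wilson intervals (left) and as peaks per 100 kb of sequence of that class (right), with 1 colour for each list. Coding last exons hold a larger share of peaks in Zfp genes than elsewhere, but fewer peaks per 100 kb.

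Each summit was given 1 position, with promoters taken first. Promoters held 53.7% of REX1 peaks in Zfp genes (50.7% to 56.7%), 49.0% of RNF12 WT peaks (46.0% to 52.0%) and 46.9% of RNF12 mutant peaks (43.7% to 50.2%). In other protein-coding genes they held 42.2%, 41.2% and 40.9%. The order of the lists depended on the threshold. Among the 20000 peaks of each list with the highest −log10 q the Zfp shares were 65.8%, 70.3% and 75.5%. Introns held smaller shares, 29.6%, 24.5% and 30.7% in Zfp genes against 42.4%, 36.7% and 40.7% in other genes. Promoters make up 9.60% of the Zfp gene regions and 5.49% of those of other genes, and introns 76.1% and 87.0%. Per 100 kb, Zfp promoters had 51.3, 48.0 and 39.6 peaks, against 43.2, 46.5 and 36.2 in other genes. Promoters of the other C2H2 genes had 56.0, 57.5 and 48.7. Zfp introns had 3.6, 3.0 and 3.3 per 100 kb, against 2.7, 2.6 and 2.3 in other genes and 3.6, 3.7 and 2.7 in other C2H2 genes. Promoter summits stood close to the start site: 72.1% of the REX1 ones, 72.7% of the RNF12 WT ones and 75.9% of the RNF12 mutant ones were within 300 bp of the TSS. Some of them, 63 of 559, 54 of 523 and 43 of 431, lay at the same time in the promoter of another protein-coding gene.

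Coding sequence of the last exon held 94 REX1 summits (9.03%, 7.44% to 10.9%), 136 RNF12 WT summits (12.7%, 10.9% to 14.9%) and 119 RNF12 mutant summits (13.0%, 10.9% to 15.3%). In other protein-coding genes the shares were 3.03%, 4.25% and 3.99%. This sequence is 3.98% of the Zfp gene regions and 0.565% of those of other genes, and per 100 kb of it the order was the opposite, with 20.8, 30.1 and 26.4 peaks in Zfp genes and 30.1, 46.7 and 34.3 in other genes. The larger share in Zfp genes thus went with more such sequence, at a lower density of peaks. With the 3′ UTR included, last exons held 10.8%, 15.3% and 14.9% of peaks in Zfp genes. Among the 20000 peaks of each list with the highest −log10 q they held 8.65%, 9.80% and 4.76%. With 1 peak per gene they held 7.67%, 9.00% and 5.63%, so that the RNF12 mutant was lowest in both cases. Among the 310 other C2H2 genes, coding last exons held 7.39%, 9.71% and 9.42% of peaks. Summits fell in the finger array itself in 72 of the 94 REX1 cases (76.6%, 67.1% to 84.0%), 97 of 136 for RNF12 WT (71.3%, 63.2% to 78.3%) and 86 of 119 for the RNF12 mutant (72.3%, 63.6% to 79.5%), where the array makes up 65.4% of the same bases. The interval excluded that share for REX1 and did not for RNF12 WT or the RNF12 mutant, and the REX1 interval overlapped both others. That share pools the coding last exons of all Zfp genes, with or without a peak. A preference for arrays, or a difference between lists, therefore cannot be read from it.

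In coding exons before the last one the RNF12 WT list had 106 peaks (9.93%, 8.27% to 11.9%) against 46 for REX1 (4.42%, 3.33% to 5.84%) and 57 for the RNF12 mutant (6.21%, 4.82% to 7.96%). In other protein-coding genes the shares had the same order and were higher, 12.8% for RNF12 WT, 7.54% for REX1 and 10.7% for the RNF12 mutant. By gene, 13.2%, 6.87% and 8.79% of Zfp genes had such a peak, against 21.4%, 14.3% and 15.0% of all protein-coding genes. Per 100 kb this came to 49.5 peaks for RNF12 WT, where its promoters had 48.0, and to 21.5 and 26.6 for REX1 and the RNF12 mutant. Other protein-coding genes had 35.8, 19.1 and 23.4 for RNF12 WT, REX1 and the RNF12 mutant. The other C2H2 genes had 53.39, 30.95 and 38.69 in the same order, above the Zfp genes in each list. The 3′ UTR of the last exon had 18, 27 and 18 summits for REX1, RNF12 WT and the RNF12 mutant (1.73%, 2.53% and 1.96%, against 2.75%, 3.07% and 2.03% in other genes), and UTRs in other exons had 3, 3 and 2.

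In each list promoter peaks were stronger by their median than coding last exon peaks, and other protein-coding genes had close to the same values. Among RNF12 mutant peaks in Zfp genes, promoter peaks had a median fold enrichment of 9.01, the 68.6th percentile of the list, and coding last exon peaks 5.84, the 35.7th. RNF12 WT promoter peaks stood at the 63.6th percentile (5.07) and its coding last exon peaks at the 49.5th (4.58). REX1 promoter peaks stood at the 55.0th percentile (4.66), its coding last exon peaks at the 45.2nd (4.33) and its intron peaks at the 41.8th (4.20). In other protein-coding genes the promoter and coding last exon medians stood at the 68.2nd and 37.9th percentiles for the RNF12 mutant, the 59.3rd and 47.2nd for RNF12 WT and the 54.3rd and 43.2nd for REX1.

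For REX1 the strongest promoter peaks were those of Zfp40 (22.8), Zfp329 (22.7) and Zfp532 (19.1), and the Zfp40 summit lay 11 bp from the centre of the string shown above. The strongest Zfp40 promoter peaks of RNF12 WT and the RNF12 mutant had 11.9 and 9.40, each with a string of this type within 50 bp of its summit. For RNF12 WT they were those of Zfp652 (13.4), Zfp866 (13.0) and Zfp708 (13.0). For the RNF12 mutant they were those of Zfp281 (30.1), a regulator of pluripotency, Zfp541 (29.7), known from meiosis, and Zfp207 (25.7), whose protein BuGZ acts in mitosis. Of these 9 peaks 8 overlapped a peak of both other lists, and the REX1 peak of Zfp532 overlapped RNF12 WT only, where 60.1%, 66.3% and 68.2% of all promoter peaks of Zfp genes overlapped both (REX1, RNF12 WT, RNF12 mutant). The promoters that ranked high in all 3 lists were those of Zfp207, Zfp541 and Zfp318. At Zfp207 the fold enrichment was 15.0 for REX1, 12.7 for RNF12 WT and 25.7 for the RNF12 mutant, percentiles of 99.3, 99.9 and 98.1, and its summits lay at -18, -42 and -46 from the TSS. The string shown above lay at 80383209 to 80383216 on chromosome 11, wholly within 50 bp of the RNF12 summits at 80383237 and 80383233, and 2 of its bases fell outside that window around the REX1 summit at 80383261. At Zfp541 the values were 13.2, 8.23 and 29.7, and at Zfp318 they were 18.9, 8.17 and 20.2.

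Among coding last exons, the strongest REX1 peaks were in Zfp777 (12.5), Zfp503 (9.64) and Zfp467 (8.88). Zfp503 (NOLZ1) is known from striatal neurons and had no finger string, so its peaks lay outside any array. The strongest RNF12 WT ones were in Zfp697 (9.36), Zfp275 (8.69) and Zfp503 (8.52), and the strongest RNF12 mutant ones in Zfp444 (17.6), Zfp771 (16.3) and Zfp777 (16.3). These 9 peaks all overlapped a peak of both other lists, as did 60.6%, 49.3% and 53.8% of all peaks of the same lists in coding last exons of Zfp genes. Zfp777, Zfp503 and Zfp697 also ranked highest over the 3 lists together. At Zfp777 the REX1, RNF12 WT and RNF12 mutant summits (fold enrichment of 12.5, 7.95 and 16.3, at the 98.5th, 96.9th and 91.2nd percentiles) stood at 48024725, 48024688 and 48024752 on chromosome 6, all within 50 bp of the linker shown above. At Zfp697, with 6.90, 9.36 and 13.3, the REX1 and RNF12 WT summits stood at 98427832 and 98427830 on chromosome 3, in the linker shown above, and the strongest RNF12 mutant summit stood at 98428126, in another linker of the same array. At Zfp503, with 9.64, 8.52 and 12.2, the strongest RNF12 mutant summit, at 21986173 on chromosome 14, lay apart from the REX1 one at 21985134. Over the 43 genes with a coding last exon summit in all 3 lists the strongest REX1 peak ranged from 2.40 to 12.5, the RNF12 WT one from 3.06 to 9.36 and the RNF12 mutant one from 3.90 to 17.6.

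Genes with and without a last exon peak differed in base composition. The coding last exon of 319 genes held at least 300 bases outside promoters. In the 43 with a summit there in all 3 lists its GC content had a median of 60.5% and ranged from 51.8% to 71.7%. In the 231 without one in any list the median was 41.9%, with a range of 33.5% to 61.6%, and the middle 50% of each set did not overlap (59.2% to 64.1% against 38.1% to 46.4%). The 45 genes marked in 1 or 2 lists lay between, at 56.4%. The order was the same in genes that met the KRAB profile (60.3% for 16 genes in all 3 lists, 40.4% for 184 in none) and in finger genes that did not (60.6% for 25, 45.7% for 41). The median length of this sequence was 1322 bases in genes marked in all 3 lists, 968 in those marked in 1 or 2 and 1465 in those marked in none. At promoters the same split was smaller: GC had a median of 49.5% in the 261 genes marked in all lists and of 44.4% in the 22 marked in none, and the ratio of observed to expected CpG was 0.503 against 0.253. The part of GC content in these differences was not tested.

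**Figure D2:**
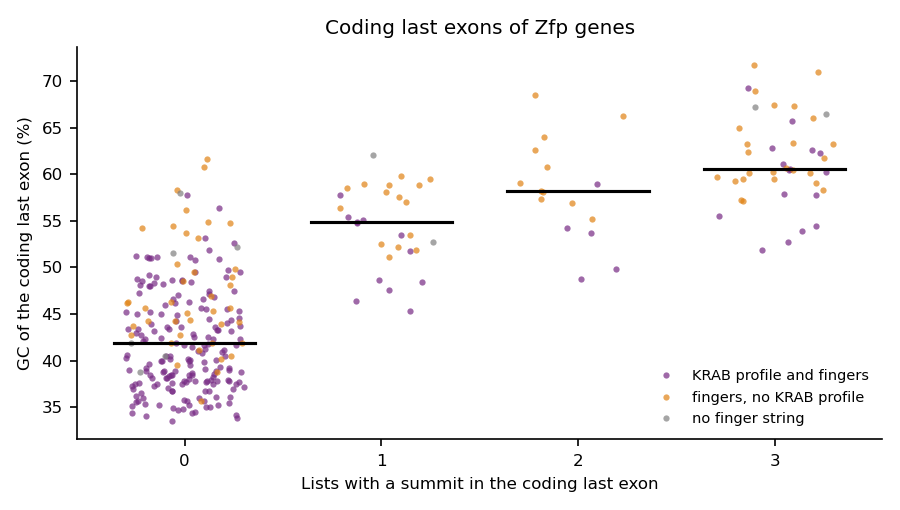
GC content of the coding last exon in percent for 319 Zfp genes (points), by the number of lists with a summit there, with the class of the encoded protein in colour and the median of each column as a line. Exons without a peak centre on 41.9% and exons marked in all 3 lists on 60.5%.

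The classes of protein differed in how often their genes were marked. Of 175 genes with the KRAB string and fingers, 82.3% had a REX1 promoter peak (76.0% to 87.2%), 71.4% an RNF12 WT one (64.3% to 77.6%) and 73.7% an RNF12 mutant one (66.7% to 79.7%). Of 176 finger genes without the string, some of which encode a diverged KRAB domain, the shares were 92.6%, 92.1% and 90.9%, and these intervals began at 87.8%, 87.1% and 85.7%. By the profile the values were 85.1%, 75.7% and 76.1% of 222 KRAB genes against 91.5%, 92.2% and 93.0% of 129 others. The REX1 intervals then overlapped (79.9% to 89.2% against 85.4% to 95.2%), and the RNF12 ones did not. Last exon peaks were rarer in KRAB genes by the profile as well, in 13.5%, 13.1% and 9.46% of them against 31.0%, 44.2% and 38.0% of the others. A promoter peak of REX1 alone was found in 21 of the 222 KRAB genes, and in 2 of the 129 other finger genes, where the share was 6.59% of all Zfp genes and 2.47% of all protein-coding genes.

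A run of 18 genes on chromosome 4, from Zfp990 to Zfp933 (chr4:145510759-147848366), all with the KRAB string, held 11 of the 24 Zfp genes with a promoter peak of REX1 alone. REX1 had a promoter peak in 16 of them, RNF12 WT in 4 and the RNF12 mutant in 5, and no list had a summit in a last exon there. By fold enrichment the REX1 promoter peaks were mostly weak, with values from 1.99 at Zfp990 to 6.58 at Zfp979 and a median at the 19.7th percentile of the list. By −log10 q they were not, with values from 1.63 at Zfp990 to 27.2 at Zfp980, most of them above the list median of 5.39. Of these 20 peaks, 19 stood within 250 bp of a TSS. Words of 32 bases around their summits occurred more than once in the genome for 16 of the 20, at a median of 4 copies. With unique words only, 4 genes kept a REX1 promoter peak, 1 an RNF12 WT one and 0 an RNF12 mutant one. How the authors placed reads with several matches is not given in the sources used here, and the part of such reads was not tested.

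**Figure D3:**
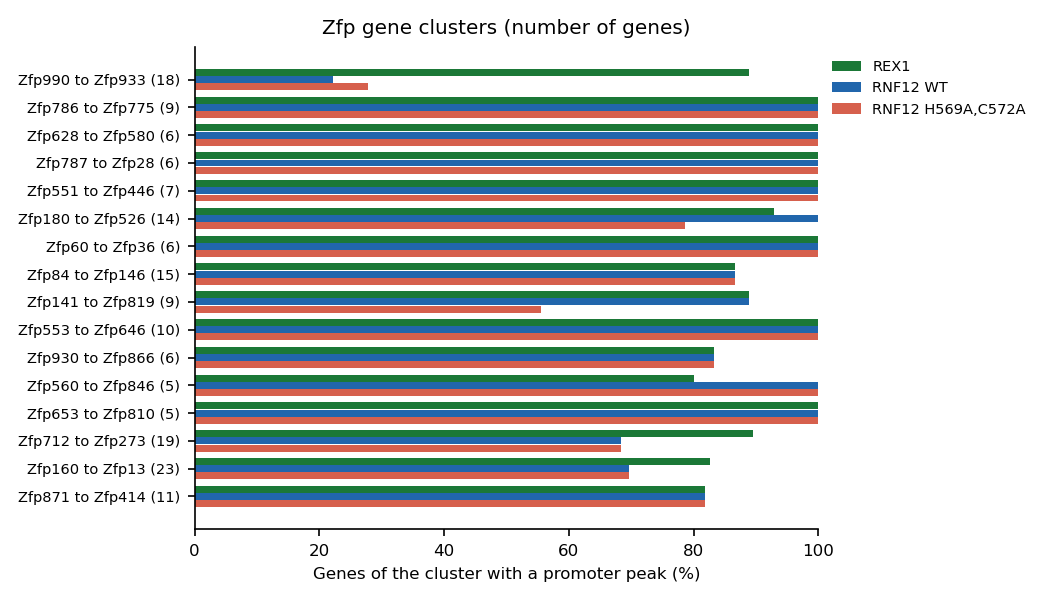
Share of the genes of each Zfp cluster with a promoter peak, in percent, as bars from 0 for the 3 lists, where a cluster is a run of at least 5 Zfp genes less than 500 kb apart and the number in brackets counts its genes. In the Zfp990 to Zfp933 run REX1 marks 16 of 18 promoters and RNF12 WT 4.

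The 16 clusters hold 169 of the 364 genes. On chromosome 13, 19 genes from Zfp712 to Zfp273 had promoter peaks in 17 for REX1 and in 13 for each RNF12 list, with no summit in a last exon. In 6 clusters last exons held a larger share of the peaks in each list than the 10.8%, 15.3% and 14.9% of all Zfp genes, and the 4 of them with most such summits, chosen after their values were seen, are described. From Zfp786 to Zfp775 on chromosome 6, a run that holds Zfp777 and Zfp467, 9 genes had 11, 15 and 15 last exon summits of 31, 40 and 34 peaks for REX1, RNF12 WT and the RNF12 mutant. From Zfp553 to Zfp646 on chromosome 7, which holds Zfp771, 10 genes had 14, 15 and 14 of 42, 35 and 31. From Zfp628 to Zfp580, also on chromosome 7, 6 genes had 5, 9 and 11 of 19, 27 and 25, of which Zfp628 alone had 2, 5 and 6. Every gene of these 3 clusters had a promoter peak in every list. From Zfp180 to Zfp526 on chromosome 7, 14 genes had 8, 11 and 9 of 30, 39 and 34, and promoter peaks in 13, 14 and 11. Chromosome 7 as a whole holds 89 of the genes and 267, 272 and 227 of their peaks.

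Peaks at promoters and last exons were shared between lists more often than peaks in introns. An overlap of at least 1 bp with either RNF12 list was found for 77.6% of REX1 promoter peaks (74.0% to 80.9%), for 74.5% of those in coding last exons (64.8% to 82.2%) and for 26.6% of those in introns (22.0% to 31.8%). For other protein-coding genes the values were 81.4%, 68.0% and 29.5%. For RNF12 WT, overlap with either other list was 92.2% at promoters, 77.9% in coding last exons (70.3% to 84.1%) and 47.3% in introns, and in coding last exons of other genes it was 60.7% (58.9% to 62.5%). For the RNF12 mutant the values were 89.8%, 87.4% (80.2% to 92.2%) and 33.3%, with 75.4% (73.5% to 77.2%) in coding last exons of other genes. For both RNF12 lists coding last exon peaks of Zfp genes were thus shared more often than those of other genes, beyond the counting intervals, and for REX1 the intervals overlapped. Among the 310 other C2H2 genes the coding last exon values were 88.3%, 78.7% and 85.4% for REX1, RNF12 WT and the RNF12 mutant, with intervals that overlapped those of the Zfp genes. RNF12 mutant summits in introns often lay in repeated sequence, with 10 or more genomic copies of the 32-base word at 136 of 282 (48.2%) and soft-masked bases, which mark repeats, at a mean of 60.4%. In introns of other protein-coding genes the share of the RNF12 mutant list was 52.5%, and in introns of Zfp genes it was 6.82% for REX1 and 9.92% for RNF12 WT, so that it was not particular to Zfp genes. With unique words only, 54.0% of the remaining 100 overlapped another list in place of 33.3%.

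**Figure D4:**
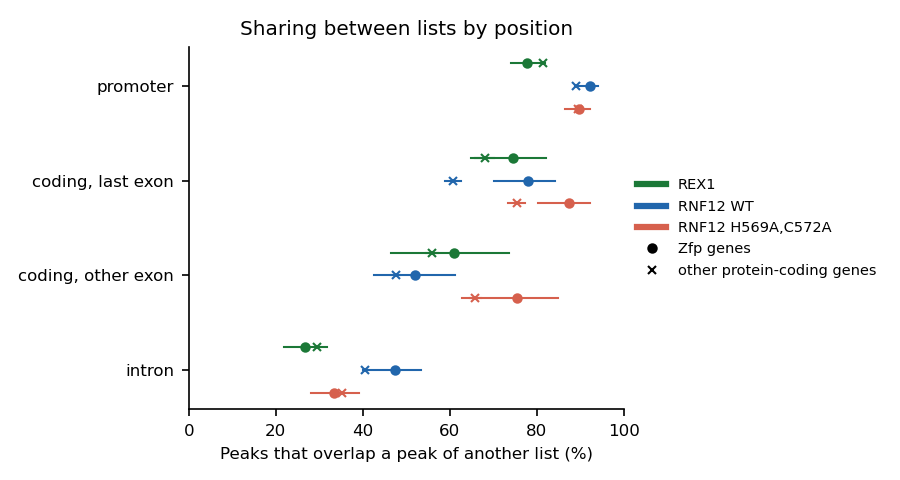
Share of peaks that overlap a peak of another list by at least 1 bp, in percent with 95% Wilson intervals, by position, for Zfp genes (circles) and other protein-coding genes (crosses), with 1 colour for each list. Promoter and coding last exon peaks lie above intron peaks in each list.

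The REX1/YY1-type string was found within 50 bp of the summit in 61 of 559 REX1 promoter peaks of Zfp genes (10.9%, 8.59% to 13.8%), against 2.68% of windows 250 to 350 bp to either side. In other protein-coding genes the REX1 promoter value was 9.61%. At RNF12 WT promoter summits it was 5.16% with 3.25% in the flanks, and at RNF12 mutant promoter summits 5.10% with 2.78%. The string with most matches at REX1 promoters was ATGGCGGC, at 27 of 559, and at REX1 intron summits ATGGCTGC, at 17 of 308. The YY1 core AAGATGGC, which overlaps these strings in its last letters, was at 26 REX1 promoter summits (4.65%, 3.19% to 6.73%), against 1.07% of flanks and 2.83% in other genes. REX1 promoter peaks with the string had a median fold enrichment of 6.47, the 85.5th percentile, and those without it 4.45, the 47.9th. In 299 Zfp genes matched by symbol to the RefSeq promoter table (GRCm38.p6, 300 bases a promoter), 38 of 361 promoters held the string (10.5%, 7.77% to 14.1%), against 7.14% of the 32851 promoters of that table.

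In coding last exons the string was found at 5 of 94 REX1 summits (5.32%, 2.29% to 11.9%), an interval that holds the 10.2% of other genes, and AAGATGGC was at 0 of them, with an upper bound of 3.93%. The finger linker was more frequent there. Codons for it, in any reading frame, stood within 50 bp of 36 of 94 REX1 summits (38.3%, 29.1% to 48.4%), against 25.5% of their flanks. For RNF12 WT the values were 23.5% (17.2% to 31.3%) and 19.1% of flanks, and for the RNF12 mutant 24.4% (17.5% to 32.8%) and 18.1%, so that there the flanks lay within the interval. The flanks were not restricted to coding last exons or arrays, so this comparison cannot show in any list whether linkers mark the summits. The 32-base word was unique at 93 of 94, 134 of 136 and 119 of 119 of these summits, although linkers recur along an array.

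Among 23 Zfp genes with known roles in stem cells, chromatin or RNA, each had a promoter peak in all 3 lists, where 71.7% of all Zfp genes had. That share was 62.6% in KRAB genes by the profile and 88.4% in other finger genes, and the 23 include genes of both classes. The 23 were chosen with earlier results of these data known. The strongest promoter peaks of these genes stood at different places within the lists. Zfp207 was among the highest throughout. For REX1 the highest in this set were Zfp143, a factor that binds many promoters itself, at the 99.6th percentile, Zfp292 at 16.1 (99.4th) and Zfp207 at 15.0, followed by Zfp445 at 14.1. Zfp445 and Zfp57 encode KRAB proteins that keep imprints, and Zfp57 had fold enrichments of 6.03, 3.99 and 8.32, percentiles of 81.1, 29.0 and 64.2 for REX1, RNF12 WT and the RNF12 mutant. Zfp809, which silences proviruses in embryonic stem cells, stood at 89.8, 92.7 and 79.2, and Zfp568, known for repressing an Igf2 transcript, at 85.8, 91.7 and 82.9.

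The pluripotency factor Zfp281 was near the middle of the REX1 list and near the top of the others, with 4.48 (50.6th percentile), 7.96 (97.0th) and 30.1 (99.2nd). Zfp148, Zfp384 and Zfp36, which encodes the mRNA decay factor tristetraprolin with fingers of another type, also had their lowest percentile for REX1 (63.0, 46.5 and 23.8). Zfp410, an activator of Chd4, was the lowest for REX1, at 3.19 (9.71st percentile), and stood at 40.7 and 56.7 in the RNF12 WT and RNF12 mutant lists. No last exon peak was found in 16 of the 23, close to the 67.6% of all Zfp genes without one, and of the 23 only Zfp296, a factor of embryonic stem cells, had one in all 3 lists.

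**Figure D5:**
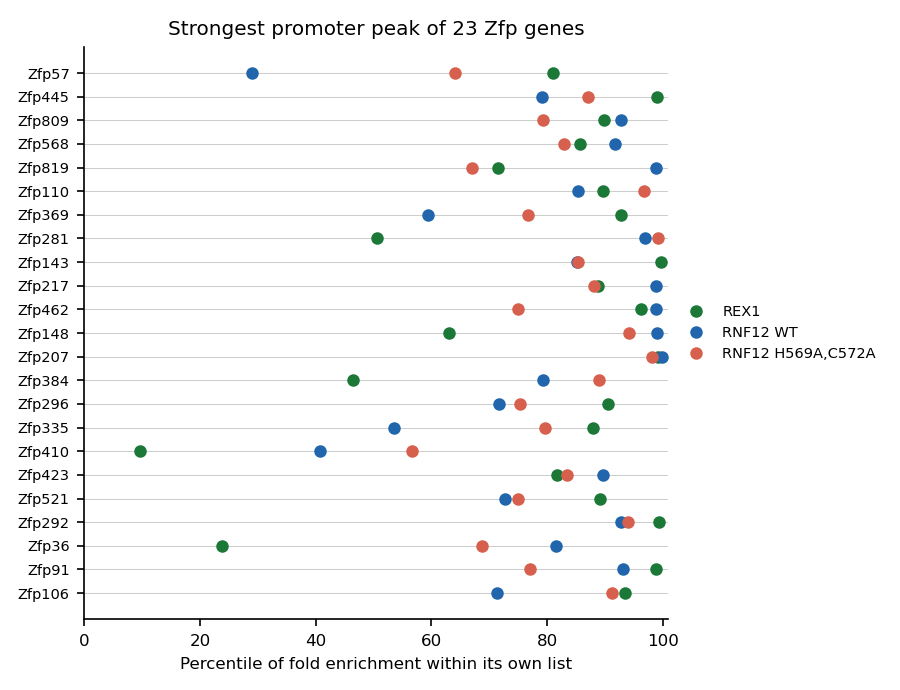
Percentile of the fold enrichment of the strongest promoter peak of 23 Zfp genes within its own list, from 0 to 100, with 1 point for each list. Zfp207 is high in all 3 lists, and Zfp410 is the lowest for REX1 at 9.71. At Zfp143 the RNF12 points overlie each other.

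The genes with most peaks over the 3 lists were Zfp423 (42 for REX1, 52 for RNF12 WT and 25 for the RNF12 mutant), Zfp536 (25, 24 and 14) and Zfp516 (21, 24 and 14). Zfp423 acts in neural and fat cell development and Zfp516 in brown fat. Their promoter peaks numbered 6, 6 and 4 at Zfp423, 5, 3 and 5 at Zfp536 and 3, 8 and 7 at Zfp516, so that most of the peaks lay within the long gene bodies.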

How the data were processed

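V5 ChIP-seq peak lists of REX1, wild-type RNF12 and an RNF12 mutant (H569A and C572A) were used, 1 library each; 2 control libraries were not analysed here. Per the labels, reads were 36 bases. The submitters' processing notes name Trim Galore 0.6.7, Bowtie2 2.5.0, SAMtools 1.10 and MACS2 2.2.7.1 with mm10. Per the methods, the authors aligned reads to mm10 with bases that differ between 129/Sv and Cast/Ei masked, merged reads of both alleles with unassigned ones, and called narrow peaks at the default settings of MACS2; Bowtie2 settings are not given in the sources used here. Printed sequences are those of the reference assembly, not of these cells. The deposited values per peak are fold enrichment, a ratio of signal to control, and −log10 p and −log10 q from MACS2, as the authors' peak caller gave them; the deposited score was not used. Which control stands behind each list is not settled, and the labels give a tagged REX1 library where the paper's results describe REX1 occupancy from earlier work.

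Summits were assigned to GENCODE M21 protein-coding genes, each summit taking 1 position in the order promoter (within 1 kb of a TSS), coding exon, UTR, other exon and intron, with the last exon taken from transcripts of several exons. No peak ended past its GRCm38 chromosome (0 over 21 chromosomes). Fingers were counted in the longest coding sequence by a string of spaced cysteines and histidines. The KRAB A box was called by a string and, chosen after seeing the data, by a HMMER 3.4 profile (E-value of at most 0.001), which also met 32 of 21124 genes without fingers. Base composition by peak and the clusters named for last exons were also chosen after seeing the data. The genes named are the 3 strongest promoter and last exon peaks of each list, the 3 genes with most peaks, the 3 promoters and last exons highest over all lists, and a list of 23 genes. Members and gene lists were chosen with earlier results of these data known. The assignment of summits, the position classes, the overlaps, the Wilson intervals and the word counts were tested on simulated data. Python 3.11.15, pandas 2.3.3 and pysam 0.24.0 were used. Alternatives changed the peak threshold, the overlap, the promoter width, the transcripts, the symbols, the chromosomes and the peaks counted per gene.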

Additional observations from a re-analysis of the deposited data

How the results depend on the processing

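Of 75 alternative values for 12 main results, 44 stayed within the counting interval (for gene counts, within 1.5 times), among them every value without chromosomes 10 and 12. On chromosome 10 the RNF12 WT list had 3070 peaks, against 4554 for REX1 and 4672 for the RNF12 mutant. On chromosome 12 the RNF12 WT list had 2289, against 5892 and 4303, so a missing RNF12 WT peak says less on these chromosomes. The 20000 peaks of a list with the highest −log10 q left 184 Zfp genes with a REX1 peak in place of 329 and 129 with an RNF12 mutant peak in place of 321. In the order REX1, RNF12 WT and the RNF12 mutant, the promoter share was 59.1%, 56.9% and 50.8% at −log10 q of at least 5, 65.8%, 70.3% and 75.5% in these 20000, 38.7%, 35.6% and 35.6% with promoters of 300 bp, and 77.0%, 81.7% and 76.6% with 1 peak per gene. For RNF12 WT it was 52.9% with all transcripts, and for the RNF12 mutant 56.5% with unique words. The last exon share was 8.65%, 9.80% and 4.76% in these 20000 and 7.67%, 9.00% and 5.63% with 1 peak per gene. For the RNF12 mutant it was 19.2% with unique words. The share with a peak of another list was 35.5%, 44.9% and 45.0% at 50% overlap of both peaks and 45.8%, 56.6% and 57.7% by summits within 100 bp. For the RNF12 mutant it was 60.9% at −log10 q of at least 5 and 84.8% with unique words. The cause of these shifts was not tested. With 1 library a list and unknown depth, a missing peak can reflect shallow sequencing. Of the alternatives chosen after seeing the data, the profile call for KRAB moved none of 12 shares past its interval, and unique words moved 3 of the shares by position. No paired analysis was possible because each list has 1 library.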
